A study of Mus musculus with 27 samples.

Results

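Phospholipid remodelling genes of ferroptosis were followed as 8 genes, chosen by name from 56691 rows of the gene table, and all 8 were among the 15115 genes with enough reads to be tested. They are the acyl-CoA synthetases Acsl3 and Acsl4, the lysophospholipid acyltransferases Lpcat3, Mboat1 and Mboat2, and the ether lipid enzymes Agps, Far1 and Gnpat. RNA was sequenced from organoids of the mouse stomach corpus, 7 groups of 3 libraries. All groups were labelled gastric epithelium and kept in proliferative culture in Matrigel, and the growth protocol gives adult mice with the Mist1CreERT2 and RFPLSL alleles as the source of all. In such mice a tamoxifen-dependent Cre recombinase made in Mist1-expressing cells switches on a red fluorescent protein. Organoids labelled Mist1- were sampled at passage 5 (genotype WT). Organoids labelled Mist1+ (genotype WT, called wild type below) and Gpx4 KO Mist1+ organoids, from mice that also carry the floxed allele Gpx4F/F, were sampled at passages 5, 10 and 15. The labels describe a sort for RFP+ cells, give no sort for the Mist1- organoids and no tamoxifen schedule, and do not state if the 3 libraries within each group came from different cultures or animals. The p-values therefore measure the spread between these libraries, which may be technical.

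Ferroptosis is a form of cell death in which iron-dependent peroxidation of polyunsaturated acyl chains in membrane phospholipids runs out of control, and Gpx4 is the selenoenzyme that reduces those phospholipid peroxides. ACSL4 activates polyunsaturated fatty acids and LPCAT3 places them in phospholipids, which makes membranes easier to oxidise, whereas ACSL3 and the acyltransferases MBOAT1 and MBOAT2 favour monounsaturated chains and are known to restrain ferroptosis. FAR1, GNPAT and AGPS begin the synthesis of ether phospholipids in peroxisomes, and polyunsaturated ether lipids are a further substrate of peroxidation.

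Libraries held 13805585 to 19608956 counts in genes. Wild-type passage 15 stood apart: its biological coefficient of variation between libraries was 20.99%, against 1.88% to 3.09% in the other 6 groups. Its replicate 1, and less strongly its replicate 3, was low for long genes and high for short genes. The median log2 deviation from each gene's median over all libraries was -0.34 (long) and 0.29 (short) in replicate 1. In replicate 3 it was -0.14 and 0.11. Some values below take replicate 2 of wild-type passage 15 as the sole library of that group, a choice made after seeing the data. The spread in that fit comes from the other groups alone, and the p-values assume that the lone library varies as theirs do. Gpx4 itself was lower but not absent in the knockout organoids, with 98.2 to 101 CPM (counts per 1e+06, TMM-scaled) at passage 5 against 124 to 134 in wild type, 88.1 to 101 against 112 to 125 at passage 10, and 83.1 to 87.8 against 104 to 195 at passage 15. The log2 fold changes of Gpx4 were -0.38 ± 0.14 (SE, adjusted p = 0.0362), -0.30 ± 0.14 (adjusted p = 0.094) and -0.72 ± 0.14 (adjusted p = 0.000215). At passage 5 that call ended in each of the 6 fits without 1 of the libraries compared (adjusted p = 0.0524 to 0.101), and at passage 10 Gpx4 was called with the wild-type passage 15 libraries dropped (adjusted p = 4.52e-12). At passage 15 it was at -0.43 without wild-type replicate 1, and the call ended when the fit held the 2 groups alone (adjusted p = 0.0564). A gene-level count cannot show whether the deleted exons were read. Bhlha15, which encodes Mist1, was at 8.61 to 12.8 CPM in Mist1- and 5.02 to 6.21 CPM in Mist1+ libraries at passage 5, so its level went against those labels. The sum of 4 epithelial markers was 4265 to 6253 CPM and that of 5 fibroblast markers at most 2.47 CPM. Pit (surface mucous) cell markers moved widely, their 6 genes summing to 595 to 626 CPM in Mist1- organoids, 4751 to 4881, 6588 to 6823 and 953 to 1520 CPM in wild type at passages 5, 10 and 15, and 1475 to 1492, 2381 to 2580 and 4786 to 4882 CPM in the knockout. Of 6 chief cell markers, Bhlha15 among them, 5 had a row, Pga5 and Lipf were at 0 in all libraries, and the sum was 10.4 to 36.8 CPM. At passage 5 that sum was 10.5 to 14.7 CPM in Mist1- and 31.7 to 36.8 CPM in Mist1+ libraries, the reverse of the order of Bhlha15 alone. In bulk RNA, fewer cells of a type and less RNA per cell cannot be told apart.

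Across the 8 genes, Mboat2 showed by far the widest differences between groups and Gnpat the narrowest. Mboat2 was higher in Mist1+ than in Mist1- organoids and higher in the Gpx4 knockout than in wild type at each passage, with a gap that reached 3.85-fold at passage 15. Far1 was lower in the knockout at passages 5 and 10, and Mboat1 at passages 5 and 15. Acsl3 was higher in the knockout at passages 10 and 15. Gnpat was not called in any of the 10 comparisons. A gene is called higher, lower, risen or fallen here where edgeR's quasi-likelihood test gave an adjusted p under 0.05 over all genes tested. Levels are the authors' FPKM (fragments per kilobase of exon, scaled to the library total), which can be compared between genes. Fold changes come from TMM-scaled counts, on which knockout values at passages 5 and 10 stand 0.088 and 0.074 lower against wild type (log2) than on the FPKM scale.

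**Figure D1:**
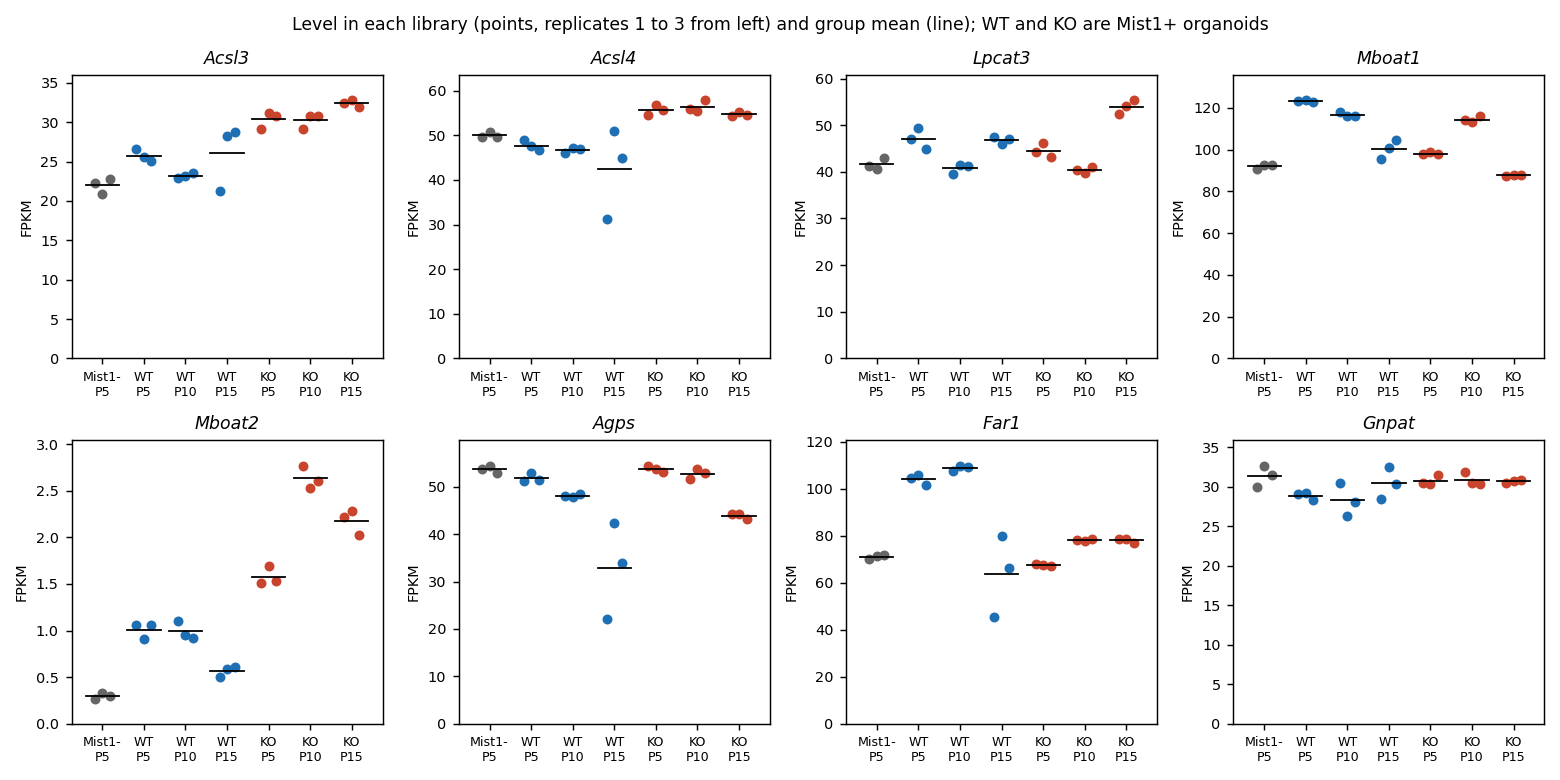
FPKM of the 8 genes (one panel each, axes from 0) in the 21 libraries, with points for libraries, black lines for group means, and Mist1- (grey), wild-type (blue) and Gpx4 knockout (red) organoids by passage. Mboat2 runs from 0.30 FPKM in Mist1- to 2.63 FPKM in the knockout at passage 10, and replicate 1 of wild-type passage 15 is the lowest library of all for Acsl4, Agps and Far1.

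The promoters of 4 genes are shown because these genes carry the main differences between knockout and wild type, Mboat2 and Acsl3 upward, and Far1 and Mboat1 downward at passage 5. Each run is the 250 bases before the RefSeq transcription start on the plus strand of GRCm38.p6, 5′ to 3′. They lie at chr12:24831349-24831598 (Mboat2), chr1:78657575-78657824 (Acsl3), chr7:113513584-113513833 (Far1) and chr13:30136240-30136489 (Mboat1), and the Mboat2 window lies inside the longer GENCODE span of that gene. The bases just after the Mboat2 window were not found in a GENCODE transcript of the gene, unlike those of the other genes. Capitals mark the CCAAT box (CCAAT or ATTGG) and the GC box (GGGCGG or CCGCCC).
Mboat2: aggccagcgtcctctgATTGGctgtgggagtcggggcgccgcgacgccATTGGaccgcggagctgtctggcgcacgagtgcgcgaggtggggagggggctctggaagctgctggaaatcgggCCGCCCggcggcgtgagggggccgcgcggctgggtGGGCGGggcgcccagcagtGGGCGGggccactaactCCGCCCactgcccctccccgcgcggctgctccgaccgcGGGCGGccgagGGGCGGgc
Acsl3: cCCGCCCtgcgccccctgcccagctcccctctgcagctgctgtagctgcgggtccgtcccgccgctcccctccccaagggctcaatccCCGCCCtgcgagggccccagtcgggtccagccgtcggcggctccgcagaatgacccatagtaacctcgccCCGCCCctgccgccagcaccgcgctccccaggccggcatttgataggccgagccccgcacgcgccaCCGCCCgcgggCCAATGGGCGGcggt
Far1: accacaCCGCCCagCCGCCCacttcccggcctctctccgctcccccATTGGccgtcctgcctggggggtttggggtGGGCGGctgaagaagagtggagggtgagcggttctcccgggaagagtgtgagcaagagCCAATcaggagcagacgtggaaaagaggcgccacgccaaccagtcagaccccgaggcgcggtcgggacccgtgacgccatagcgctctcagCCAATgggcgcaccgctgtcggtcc
Mboat1: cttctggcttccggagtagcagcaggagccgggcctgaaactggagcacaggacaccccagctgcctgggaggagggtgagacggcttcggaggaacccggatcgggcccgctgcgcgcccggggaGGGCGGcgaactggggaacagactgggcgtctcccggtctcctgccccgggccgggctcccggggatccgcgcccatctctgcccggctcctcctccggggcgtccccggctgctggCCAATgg
GC box letters were found in this window in 8 of the 8 genes, against 32.7% of the 32851 promoters of the RefSeq table. The Mboat2 window held 6, the Acsl3 window 5, the Far1 window 3 and the Mboat1 window 1. CCAAT letters were present in 6 of 8, against 33.8% of all, and Acsl4 and Gnpat had none. The E-box letters CANNTG, the kind of site that basic helix-loop-helix factors such as Mist1 bind, were present in 6 of 8 against 66.2% of all, and were not found in the Mboat2 and Far1 windows. The core TGACNNNGC of the antioxidant response element was in 0 of 8 windows against 10.2% of all promoters. All motifs were searched on both strands, the CCAAT and GC boxes lie end to end in Acsl3, and a match is a description of letters only.

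Among the acyl-CoA synthetases, Acsl3 (ENSMUSG00000032883, GRCm38 chr1:78657825-78707743, plus strand) encodes an enzyme that favours monounsaturated chains. Its FPKM was 22.29, 20.88 and 22.82 in Mist1- organoids. In wild type it was 26.58, 25.53 and 25.07 at passage 5, 22.88, 23.13 and 23.49 at passage 10, and 21.23, 28.26 and 28.79 at passage 15. The knockout libraries read 29.17, 31.11 and 30.81 at passage 5, 29.16, 30.81 and 30.72 at passage 10, and 32.42, 32.77 and 31.96 at passage 15. All 9 knockout libraries thus lay above all 12 others, the order of the group means ran from the knockout at passage 15 down to Mist1-, and the neighbours that overlapped in range were the knockout at passages 5 and 10, and wild type at passages 15 and 5. Acsl3 rose in the knockout at passage 10 (log2 0.31 ± 0.071, adjusted p = 0.00178) and at passage 15 (log2 0.32 ± 0.071, adjusted p = 0.00106). At passage 5 it was not called (log2 0.15 ± 0.071, adjusted p = 0.121), but was with the wild-type passage 15 libraries dropped (adjusted p = 0.000134), scaled by library totals alone (log2 0.24, adjusted p = 0.0233), and with gene length as an offset (adjusted p = 0.0407). It was higher in Mist1+ than in Mist1- organoids (log2 0.29 ± 0.071, adjusted p = 0.00332). Utp14b, at 155 to 410 counts, lies within the Acsl3 span on the same strand.

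Acsl4 (ENSMUSG00000031278, GRCm38 chrX:142317993-142390535, minus strand), which activates arachidonic and adrenic acid for phospholipids, varied little between groups, and 27.0% of the genes tested had a narrower span of group means. The Mist1- libraries held 49.66, 50.74 and 49.69 FPKM. Wild type held 48.93, 47.56 and 46.59 FPKM at passage 5, 46.07, 47.12 and 46.9 at passage 10, and 31.27, 50.98 and 44.88 at passage 15. The knockout held 54.62, 56.86 and 55.74 FPKM at passage 5, 55.86, 55.51 and 57.83 at passage 10, and 54.34, 55.23 and 54.44 at passage 15. Every knockout library lay above every other library, while the 3 knockout groups overlapped among themselves. The knockout was called higher at passage 15 (log2 0.38 ± 0.092, adjusted p = 0.00224), where wild-type replicate 2 alone as reference gave log2 0.13. At passages 5 and 10 Acsl4 was not called (log2 0.14 ± 0.092 and 0.20 ± 0.092, adjusted p = 0.291 and 0.104). With the wild-type passage 15 libraries dropped the same differences had adjusted p = 4.52e-07 and 3.15e-13, with the SE down to 0.024. Mist1+ and Mist1- organoids differed by log2 -0.01 (95% interval -0.19 to 0.17).

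The ratio of Acsl4 to Acsl3 within a library sets a synthetase that favours polyunsaturated chains against another that favours monounsaturated ones. It is free of library scaling and leaves out the other synthetases. As an FPKM ratio it was 2.28 ± 0.13 (SD, n = 3) in Mist1-, 1.85 ± 0.012, 2.02 ± 0.020 and 1.61 ± 0.17 in wild type at passages 5, 10 and 15, and 1.84 ± 0.033, 1.87 ± 0.059 and 1.69 ± 0.014 in the knockout. It was thus highest in Mist1- organoids, whose libraries (2.18 to 2.43) did not overlap those of Mist1+ at passage 5 (1.84 to 1.86). Knockout and wild type at passage 10 did not overlap either (1.80 to 1.92 against 2.00 to 2.04). In an exact permutation test, two-sided, p was 0.1 for each of these 2 comparisons, the smallest that 3 against 3 libraries allow, and 0.5 and 0.4 for knockout against wild type at passages 5 and 15. Adjusted over the 4 exact tests these were 0.2, 0.2, 0.5 and 0.5. With these numbers of libraries no comparison could have passed 0.05, so the tests do not speak to whether the ratios differ.

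Lpcat3 (ENSMUSG00000004270, GRCm38 chr6:124663027-124704418, plus strand) places polyunsaturated chains in phosphatidylcholine and phosphatidylethanolamine. Its FPKM was 41.28, 40.58 and 43.0 in Mist1-, and 47.07, 49.36 and 44.98, then 39.59, 41.55 and 41.15, then 47.54, 45.93 and 47.0 in wild type at passages 5, 10 and 15. In the knockout it was 44.3, 46.11 and 43.2, then 40.35, 39.7 and 41.1, then 52.49, 54.01 and 55.32. The knockout at passage 15 stood alone at the top, and both genotypes were low at passage 10, where their libraries overlapped. Against wild type, the knockout was lower at passage 5 (log2 -0.17 ± 0.050, adjusted p = 0.0133) and higher at passage 15 (log2 0.21 ± 0.050, adjusted p = 0.00204). The passage 5 libraries overlapped, and the call ended with library totals alone (log2 -0.08, adjusted p = 0.217), without the low-count filter (adjusted p = 0.368), without wild-type replicate 2 (adjusted p = 0.0837) and without knockout replicate 3 (adjusted p = 0.0681). Lpcat3 overlaps Emg1, on the opposite strand, which held 1208 to 2188 counts, and the strand setting of the counting is not given in the sources used here. Lpcat3 was higher in Mist1+ than Mist1- organoids (log2 0.24 ± 0.050, adjusted p = 0.000707), a call that ended without the low-count filter (adjusted p = 0.06).

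Mboat1 (ENSMUSG00000038732, GRCm38 chr13:30136489-30246717, plus strand), an acyltransferase that places oleic acid in phosphatidylethanolamine and phosphatidylserine, had the highest mean FPKM of the 8 genes in each of the 7 groups. The Mist1- libraries held 90.74, 92.74 and 92.85 FPKM. Wild type held 123.12, 123.58 and 122.64 FPKM at passage 5, 117.86, 116.16 and 115.85 at passage 10, and 95.42, 100.85 and 104.38 at passage 15. The knockout held 97.71, 98.87 and 97.72 FPKM at passage 5, 113.93, 113.04 and 116.14 at passage 10, and 87.23, 87.7 and 88.04 at passage 15. Wild type at passage 5 was the highest group and the knockout at passage 15 the lowest, and only at passage 10 did the genotypes overlap. In the knockout Mboat1 fell at passage 5 (log2 -0.42 ± 0.041, adjusted p = 1.06e-07) and at passage 15 (log2 -0.19 ± 0.041, adjusted p = 0.000939). At passage 10 it missed the threshold (log2 -0.10 ± 0.041, adjusted p = 0.0613) and passed it with DESeq2 (adjusted p = 0.00119) and with the wild-type passage 15 libraries dropped (adjusted p = 1.35e-05). It was higher in Mist1+ organoids at passage 5 than in Mist1- (log2 0.48 ± 0.041, adjusted p = 7.57e-09). The summed pit cell markers were also higher in wild type than in Mist1- and in the knockout at passage 5, but were higher in the knockout than in wild type at passage 15, and their part in the result was not tested.

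Mboat2 (ENSMUSG00000020646, GRCm38 chr12:24830879-24964397, plus strand), an acyltransferase that places monounsaturated chains in phosphatidylethanolamine and is known as a ferroptosis suppressor, was at the lowest level of the 8 genes and differed most. Mist1- libraries held 0.27, 0.33 and 0.3 FPKM, the lowest of all groups. Wild type held 1.06, 0.91 and 1.06 FPKM at passage 5, 1.1, 0.95 and 0.92 at passage 10, and 0.5, 0.59 and 0.61 at passage 15. The knockout held 1.51, 1.69 and 1.53 FPKM at passage 5, 2.77, 2.53 and 2.6 at passage 10, and 2.22, 2.28 and 2.03 at passage 15. No knockout library overlapped any library of another genotype or label, and wild type at passages 5 and 10 was the only pair of neighbouring groups that overlapped. The counts behind these values were 44 to 445 per library. Mboat2 rose 3.48-fold in Mist1+ against Mist1- organoids (log2 1.80 ± 0.12, adjusted p = 1.33e-10). In the knockout it rose 1.47-fold at passage 5 (log2 0.56 ± 0.097, adjusted p = 0.000143), 2.52-fold at passage 10 (log2 1.34 ± 0.094, adjusted p = 5.66e-10) and 3.85-fold at passage 15 (log2 1.94 ± 0.10, adjusted p = 2.65e-12). These calls held under each alternative run, and with wild-type replicate 2 alone at passage 15 the log2 fold change was 1.91. Its group means spanned 2.90 on the log2 CPM scale, more than those of 98.3% of the genes tested, whose median span was 0.61. Mboat2 was called in the same direction in the knockout at all 3 passages, which in the same fit held for none of the other 7 genes.

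**Figure D2:**
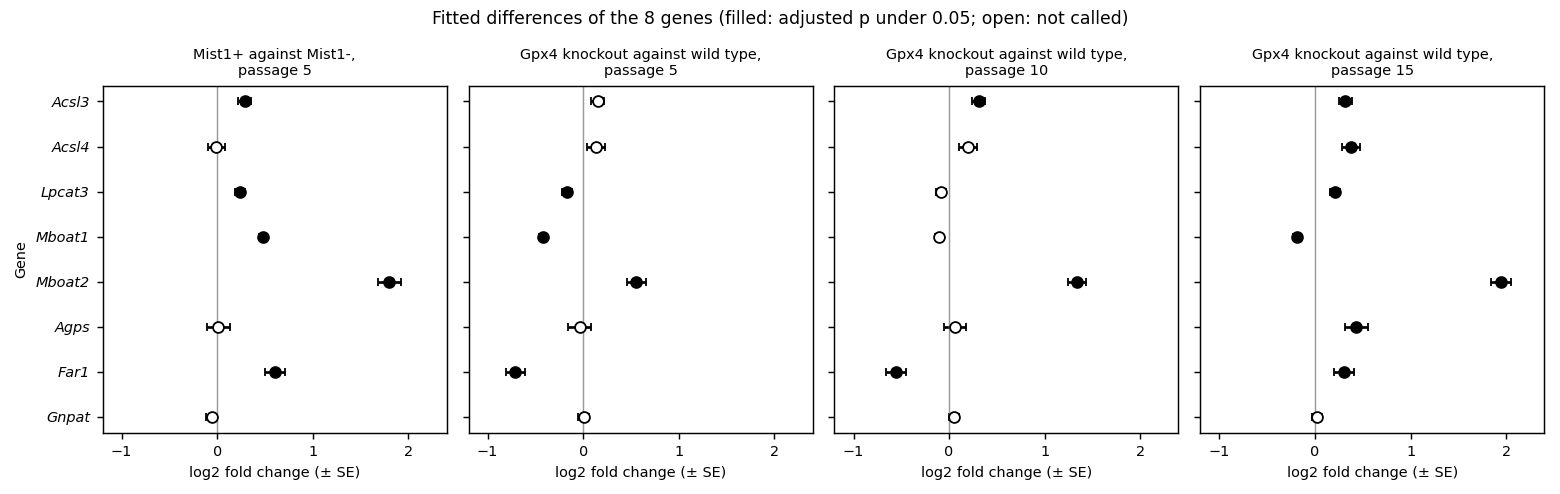
Log2 fold changes (points) with SE (bars) of the 8 genes in Mist1+ against Mist1- organoids and in Gpx4 knockout against wild type at each passage, filled where the adjusted p was under 0.05. Mboat2 lies furthest to the right in each panel, and Far1 lies left of 0 at passages 5 and 10 and right of 0 at passage 15, where wild type is the uneven group.

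Of the ether lipid enzymes, Far1 (ENSMUSG00000030759, GRCm38 chr7:113513834-113571511, plus strand) supplies the fatty alcohol and is regarded as the rate-limiting step. Its FPKM was 70.27, 71.47 and 71.82 in Mist1- organoids. Wild type held 104.63, 105.91 and 101.62 FPKM at passage 5, 107.53, 109.92 and 109.33 at passage 10, and 45.44, 80.14 and 66.12 at passage 15. The knockout held 67.97, 67.71 and 67.35 FPKM at passage 5, 78.11, 78.0 and 78.58 at passage 10, and 78.61, 78.87 and 76.81 at passage 15. Wild type at passages 5 and 10 thus stood well above all other groups, and the libraries of wild type at passage 15 were scattered over a range that took in all 9 knockout libraries. Far1 fell in the knockout 1.63-fold at passage 5 (log2 -0.71 ± 0.10, adjusted p = 1.84e-05) and 1.47-fold at passage 10 (log2 -0.55 ± 0.10, adjusted p = 0.000267). At passage 15 it was called higher in the knockout (log2 0.30 ± 0.10, adjusted p = 0.0216), with overlapping libraries. With wild-type replicate 2 alone as reference the passage 15 value was -0.0035 (adjusted p = 0.942), and the call also ended without knockout replicate 1 or 2 (adjusted p = 0.0523 and 0.055). Far1 was 1.52-fold higher in Mist1+ than Mist1- organoids at passage 5 (log2 0.61 ± 0.10, adjusted p = 7.87e-05). The sum of the 6 pit cell markers was also higher in wild type than in the knockout at passages 5 and 10. In the knockout at passage 15 that sum (4786 to 4882 CPM) was as high as in wild type at passage 5, where Far1 was higher. The part of these markers in the result was not tested. Far1os, on the opposite strand within Far1, held 3 to 195 counts against 5152 to 17269 for Far1.

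Agps (ENSMUSG00000042410, GRCm38 chr2:75832177-75931350, plus strand) encodes the peroxisomal synthase that exchanges the acyl chain for the alcohol. The Mist1- libraries held 53.67, 54.45 and 52.81 FPKM. Wild type held 51.18, 52.82 and 51.46 FPKM at passage 5, 48.0, 47.75 and 48.41 at passage 10, and 22.0, 42.37 and 34.01 at passage 15. The knockout held 54.34, 53.64 and 53.04 FPKM at passage 5, 51.6, 53.73 and 52.87 at passage 10, and 44.19, 44.26 and 43.25 at passage 15. Both genotypes were at their lowest at passage 15, and Mist1-, the knockout at passages 5 and 10 and wild type at passage 5 overlapped from one neighbour to the next. Agps was not called between genotypes at passage 5 (log2 -0.04, 95% interval -0.27 to 0.19) or passage 10 (log2 0.06, interval -0.17 to 0.29). It was called higher in the knockout at passage 15 (log2 0.43 ± 0.12, adjusted p = 0.00545), and wild-type replicate 2 alone as reference gave log2 0.08.

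Gnpat (ENSMUSG00000031985, GRCm38 chr8:124863033-124890057, plus strand), the peroxisomal acyltransferase that starts the pathway, was the steadiest of the 8. Its FPKM was 29.96, 32.69 and 31.47 in Mist1-, 28.38 to 29.19, 26.35 to 30.55 and 28.44 to 32.52 in wild type at passages 5, 10 and 15, and 30.37 to 31.5, 30.41 to 31.87 and 30.51 to 30.93 in the knockout. Every group overlapped its neighbour in the order of means. The log2 fold changes lay between -0.06 and 0.05 over 10 comparisons, and only 0.165% of the genes tested had a narrower span of group means. Gnpat overlaps 2810004N23Rik on the opposite strand, which held 551 to 926 counts against 1436 to 2069 for Gnpat.

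The share of the 8 genes called was nearest to that of all genes in the knockout at passage 10 and above it in the other comparisons, and the excess was not tested. In Mist1+ against Mist1- organoids 5 were called higher and 0 lower, where 18.8% of all genes tested were called higher and 35.0% in either direction. Knockout against wild type gave 1 higher and 3 lower at passage 5, where 13.0% of all genes were called higher, 17.0% lower and 30.1% in either direction. At passage 10 it gave 2 higher and 1 lower (15.9%, 18.5% and 34.4% of all genes), and at passage 15 it gave 6 higher and 1 lower (23.6%, 25.3% and 48.9%). The median log2 fold change of the 8 was -0.02, 0.06 and 0.31 at the 3 passages, against 0.00, -0.01 and -0.01 for all genes tested. The comparison of Mist1+ with Mist1- shares its wild-type libraries with that of the genotypes at passage 5. With the wild-type passage 15 libraries dropped 6 genes were called at passage 5 and 7 at passage 10, as were 47.4% and 52.0% of all genes. When the fit held the 2 groups alone, 1 gene (Mboat2) was called at passage 15, and the calls of Acsl3, Acsl4, Lpcat3, Mboat1, Agps and Far1 ended (adjusted p = 0.0951 to 0.248), while 2735 of 13875 genes were called. With wild-type replicate 2 alone as reference there, 5 were called higher and 1 lower, and 34.5% of all genes were called, under the assumption stated above for a lone library. The FPKM of the libraries did not overlap for 7 of the 8 genes in Mist1+ against Mist1- (58.1% of all genes tested). Between genotypes this held for 7 at passage 5 (55.6%), 5 at passage 10 (56.3%) and 6 at passage 15 (45.1%). Between passages 10 and 5 it held for 5 genes in wild type (30.7%) and 4 in the knockout (32.3%). Between passages 15 and 5 it held for 4 genes in wild type (48.0%) and 6 in the knockout (39.7%). These counts depend on FPKM scaling, which raises the knockout against wild type by 0.088 (log2) at passage 5 relative to TMM. They took in Gnpat between genotypes at passage 5 (edgeR log2 0.0034, adjusted p = 0.952). Acsl4 in Mist1+ against Mist1- was also among them (edgeR log2 -0.0088, adjusted p = 0.954).

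From passage 5 to 10 the number of the 8 genes called depended on the uneven wild-type passage 15 libraries, which enter the estimate of spread. With all libraries in the fit it was 1 in wild type and 2 in the knockout, and with those 3 dropped it was 5 (18.5% of all genes called) and 4 (22.2%). With all libraries, Lpcat3 fell in wild type (log2 -0.22 ± 0.050, adjusted p = 0.0098) and the other 7 were not called, against 4.88% of all genes called and 2.84% called lower. That call ended without wild-type passage 5 replicate 2 (adjusted p = 0.0757), without passage 10 replicate 1 (adjusted p = 0.0686) and without the low-count filter (adjusted p = 0.159). In the knockout over the same interval Mboat2 rose (log2 0.74 ± 0.089, adjusted p = 8.17e-06) and Mboat1 rose (log2 0.22 ± 0.041, adjusted p = 0.001), against 7.61% of all genes called, 3.89% higher and 3.72% lower. The Mboat1 call ended without the low-count filter (adjusted p = 0.0662). From passage 5 to 15, Mboat2 (log2 0.47 ± 0.090, adjusted p = 0.000927) and Lpcat3 (log2 0.28 ± 0.050, adjusted p = 0.000427) rose in the knockout and Mboat1 fell (log2 -0.16 ± 0.041, adjusted p = 0.012), against 13.0% of all genes called, 5.77% higher and 7.20% lower. The Mboat1 call was at adjusted p = 0.0505 without knockout passage 5 replicate 2, 0.05 without passage 15 replicate 1, and 0.215 without the low-count filter. Agps (log2 -0.29 ± 0.12, adjusted p = 0.135) and Far1 (log2 0.21 ± 0.10, adjusted p = 0.227) were not called in that interval, although both were with the wild-type passage 15 libraries dropped (adjusted p = 1.04e-29 and 1.37e-21).

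In wild type from passage 5 to 15, 5 of the 8 fell and 0 rose, against 26.6% of all genes called lower, 24.7% higher and 51.3% in either direction. They were Mboat2 (log2 -0.92 ± 0.11, adjusted p = 8.38e-07), Far1 (log2 -0.80 ± 0.10, adjusted p = 2.43e-06), Agps (log2 -0.76 ± 0.12, adjusted p = 2.75e-05), Mboat1 (log2 -0.39 ± 0.041, adjusted p = 1.64e-07) and Acsl4 (log2 -0.26 ± 0.092, adjusted p = 0.0217). The Acsl4 call ended in the fit without wild-type passage 5 replicate 1 (log2 -0.24, adjusted p = 0.074). With passage 15 as its replicate 2 alone, the values were -0.89 for Mboat2, -0.40 for Mboat1, -0.40 for Agps and -0.49 for Far1. Acsl4 was then at -0.02 and Lpcat3 at -0.15. Over all genes, the difference between these replicates moved with exonic length. In replicate 1 against replicate 2, the median gene of the shortest of 10 length bins differed by 0.35 (log2) and that of the longest by -0.60. For replicate 3 against replicate 2 these medians were 0.15 and -0.28. The long genes Agps (9421 bases, -0.87), Far1 (8055 bases, -0.74) and Acsl4 (5405 bases, -0.63) were low in replicate 1, whereas Lpcat3 (3268 bases, 0.13), Mboat1 (3659 bases, -0.0022) and Gnpat (3587 bases, -0.12) differed little. Acsl3 (4357 bases) was at -0.33, below the lower quartile (-0.27) of its length bin, whose median was 0.016. Far1 was also below the lower quartile (-0.68) of the bin with a median length of 7987 bases. Acsl4 was below the lower quartiles (-0.39 and -0.52) of the bins with median lengths of 5123 and 6234 bases. Mboat2, with 9566 exonic bases, differed by -0.15, nearer to 0 than the trend of its length.

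**Figure D3:**
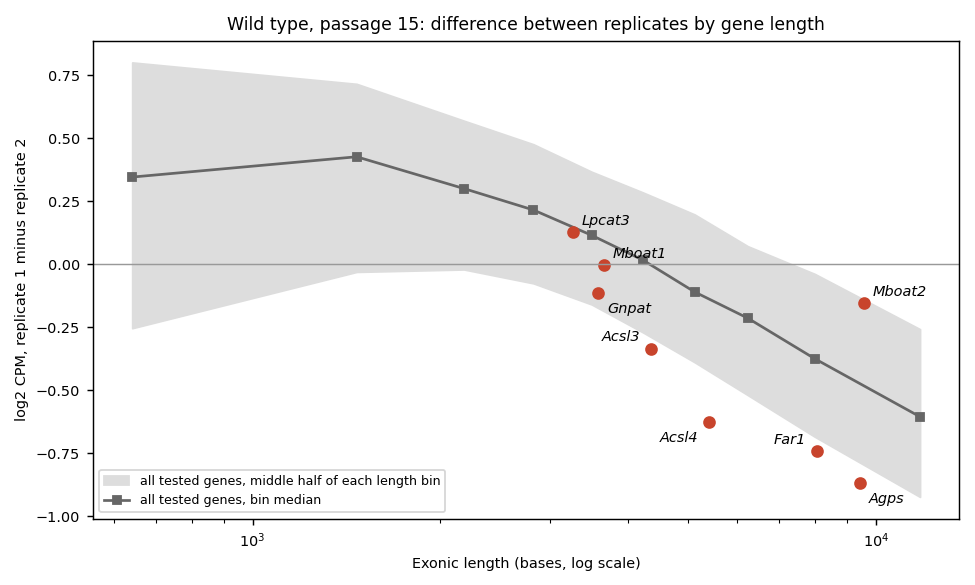
Log2 CPM of wild-type passage 15 replicate 1 minus replicate 2 against exonic length on a log axis, as the median (grey squares) and interquartile range (band) of all tested genes in 10 length bins, and as red points for the 8 genes. The bin medians run from 0.35 in the shortest genes to -0.60 in the longest. Mboat2 lies above the line and the other genes below it, Acsl3, Acsl4, Agps and Far1 furthest.

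The test of the difference between genotypes in how they changed with passage (the interaction) called 2 of the 8 at passage 10 against 5, where 5.93% of all genes were called, 3.13% of all upward, and 5 of 8 at passage 15 against 5, where 38.3% were, 19.7% upward and 18.6% downward. Mboat2 gained in the knockout relative to wild type at both steps (log2 0.78 ± 0.14, adjusted p = 0.000773, and 1.39 ± 0.14, adjusted p = 1.72e-07). Mboat1 also did (log2 0.31 ± 0.058, adjusted p = 0.00152, and 0.23 ± 0.058, adjusted p = 0.00437). At passage 15 Far1 (log2 1.01 ± 0.15, adjusted p = 1.69e-05), Agps (log2 0.47 ± 0.17, adjusted p = 0.0325) and Lpcat3 (log2 0.38 ± 0.071, adjusted p = 0.000292) were called too, all upward. The size of the Far1 and Agps values rests on the wild-type passage 15 libraries: with replicate 2 alone they were smaller, at 0.70 and 0.12. Lpcat3 was at 0.43 with replicate 2 alone. Both Mboat1 calls ended without the low-count filter (adjusted p = 0.0863 and 0.188), and that at passage 15 also when the fit held the compared groups alone (adjusted p = 0.0765). The Mboat1 and Agps calls at passage 15 ended with library totals alone (adjusted p = 0.0899 and 0.115). For Agps the call also ended with limma (adjusted p = 0.0964) and with the compared groups alone (adjusted p = 0.148), and it missed the threshold in 8 of the 12 fits without 1 library.

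The neighbouring lipid genes were taken from 8 lists. Of 7 Fads desaturases and Elovl elongases tested (10 listed), 3 were higher and 1 lower in the knockout at passage 5. There were 4 and 1 at passage 10, and 5 and 1 at passage 15. At the 3 passages 13.0%, 15.9% and 23.6% of all genes were called higher, and 17.0%, 18.5% and 25.3% lower. With the wild-type passage 15 libraries dropped, 3 of the 7 were higher and 2 lower at passage 5, and 4 and 3 at passage 10. In that fit 47.4% and 52.0% of all genes were called. Fads1, the delta-5 desaturase that makes arachidonic acid, rose at each passage (12.8 ± 0.46 against 6.49 ± 0.15 FPKM at passage 5, log2 0.90 ± 0.060, then 1.20 and 0.90). Fads2, the delta-6 desaturase, rose by log2 0.36, 0.59 and 0.24, and the elongase Elovl6 by 0.44, 0.50 and 0.49. Fads1, Fads2 and Elovl6 were each lower in Mist1+ than in Mist1- organoids (log2 -0.91, -0.31 and -0.34). The monounsaturated desaturases gave 1 lower call of 4 at passage 5 (Scd1, log2 -0.30 ± 0.093, adjusted p = 0.017) and 1 higher call at each later passage (Scd2, log2 0.29, adjusted p = 0.0187, and 0.59, adjusted p = 2.25e-05). The Scd1 call at passage 5 ended with library totals alone (adjusted p = 0.116) and without replicate 1 or 2 of either genotype (adjusted p = 0.0505 to 0.0718), and the Scd2 call at passage 10 without wild-type replicate 2 or 3 or knockout replicate 3 (adjusted p = 0.0501 to 0.0593).

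Other acyl-CoA synthetases gave 1 higher and 5 lower calls of 6 tested (11 listed) at passage 5. They gave 1 and 3 at passage 10, and 2 and 1 at passage 15, with medians of -0.41, -0.43 and 0.12. Of all genes tested, 13.0%, 15.9% and 23.6% were called higher at the 3 passages, and 17.0%, 18.5% and 25.3% lower. The counts of the lists were not tested against these shares. Slc27a1, a fatty acid transport protein with synthetase activity, fell at each passage (2.81 ± 0.19 against 4.80 ± 0.14 FPKM at passage 5, log2 -0.86 ± 0.10, then -0.53 and -0.90). Acsl1 fell at passages 5 and 10 (log2 -0.43 and -0.81) and was called higher at passage 15 (0.19, adjusted p = 0.0101). That passage 15 value was 0.08 (adjusted p = 0.362) with wild-type replicate 2 alone and -0.05 (adjusted p = 0.552) with gene length as an offset. Of 14 other acyltransferases tested (16 listed), 3 were higher and 1 lower at passage 5, 4 and 1 at passage 10, and 4 and 7 at passage 15. At passage 5 this became 6 higher and 3 lower with the wild-type passage 15 libraries dropped, where 47.4% of all genes were called. Agpat4 fell at each passage (log2 -0.32, -0.46 and -0.31, the last at -0.11, adjusted p = 0.243, with wild-type replicate 2 alone). Lpcat1, which makes dipalmitoyl phosphatidylcholine, rose at passages 5 and 10 and fell at passage 15 (log2 0.53, 0.82 and -0.52), as did Agpat5 (0.29, 0.52 and -0.27).

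Phospholipases A2 and lysophospholipases, which release chains from phospholipids, gave 1 higher and 5 lower calls of 13 tested (15 listed) at passage 5, 0 and 6 at passage 10, and 3 and 3 at passage 15. Higher calls took in 13.0%, 15.9% and 23.6% of all genes at the 3 passages, and lower calls 17.0%, 18.5% and 25.3%. With the wild-type passage 15 libraries dropped, 1 phospholipase gene was higher and 10 lower at passage 10, where 52.0% of all genes were called. Abhd4, a hydrolase of N-acyl phosphatidylethanolamines, fell at each passage (log2 -0.80, -0.83 and -1.11). The secreted phospholipase Pla2g10 changed sides, with 3.32 ± 0.46 against 8.30 ± 0.63 FPKM at passage 5 (log2 -1.41 ± 0.13), 2.49 ± 0.29 against 11.3 ± 1.2 at passage 10 (log2 -2.25 ± 0.13) and 7.32 ± 0.45 against 1.62 ± 0.18 at passage 15 (log2 2.18 ± 0.14). The pit cell marker sums given above were also lower in the knockout at passages 5 and 10 and higher at passage 15, and their part in the result was not tested. Of 15 other ether lipid genes tested (16 listed), 0 were higher and 6 lower at passage 5. There were 1 and 6 at passage 10, and 5 and 2 at passage 15, beside the same shares of all genes. Agmo, the monooxygenase that cleaves alkylglycerols, fell at each passage (2.94 ± 0.090 against 5.60 ± 0.30 FPKM at passage 5, log2 -1.02 ± 0.075, then -1.08 and -0.72). Chpt1, a choline phosphotransferase, fell at passages 5 and 10 (log2 -0.28 and -0.85) and rose at passage 15 (1.79 ± 0.052).

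Of 9 lipid peroxidation enzymes only 3 passed the filter on low counts, since 6 of the 7 lipoxygenases listed did not. With the wild-type passage 15 libraries dropped only 2 passed it. Por, the cytochrome P450 reductase, fell at passage 5 (log2 -0.27 ± 0.050, adjusted p = 0.000283) and was not called later (0.045 and -0.038, adjusted p = 0.525 and 0.547). Cyb5r1 was not called at passage 5 (log2 0.02, adjusted p = 0.84), rose at passage 10 (0.22, adjusted p = 0.0119) and fell at passage 15 (-0.18, adjusted p = 0.0271). The last call ended with wild-type replicate 2 alone (adjusted p = 0.703) and without wild-type replicate 3 or knockout replicate 1 or 2 (adjusted p = 0.0897 to 0.135), and that at passage 10 without wild-type replicate 3 (adjusted p = 0.0643). Among 12 transcription factors tested (13 listed) that are linked to these genes in other settings, 1 was higher and 2 lower at passage 5. There were 2 and 2 at passage 10, and 2 and 5 at passage 15. Of all genes, 13.0%, 15.9% and 23.6% were called higher at the 3 passages, and 17.0%, 18.5% and 25.3% lower. With the wild-type passage 15 libraries dropped, 11 of these factors passed the filter. There were then 3 higher and 3 lower at passage 5, and 4 and 3 at passage 10, where 47.4% and 52.0% of all genes were called. Pparg, a lipid-sensing nuclear receptor, fell at each passage (7.14 ± 0.33 against 20.8 ± 0.095 FPKM at passage 5, log2 -1.63 ± 0.067, then -0.52 and -0.81), and so did Ppard (log2 -0.40, -0.39 and -0.40).

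**Figure D4:**
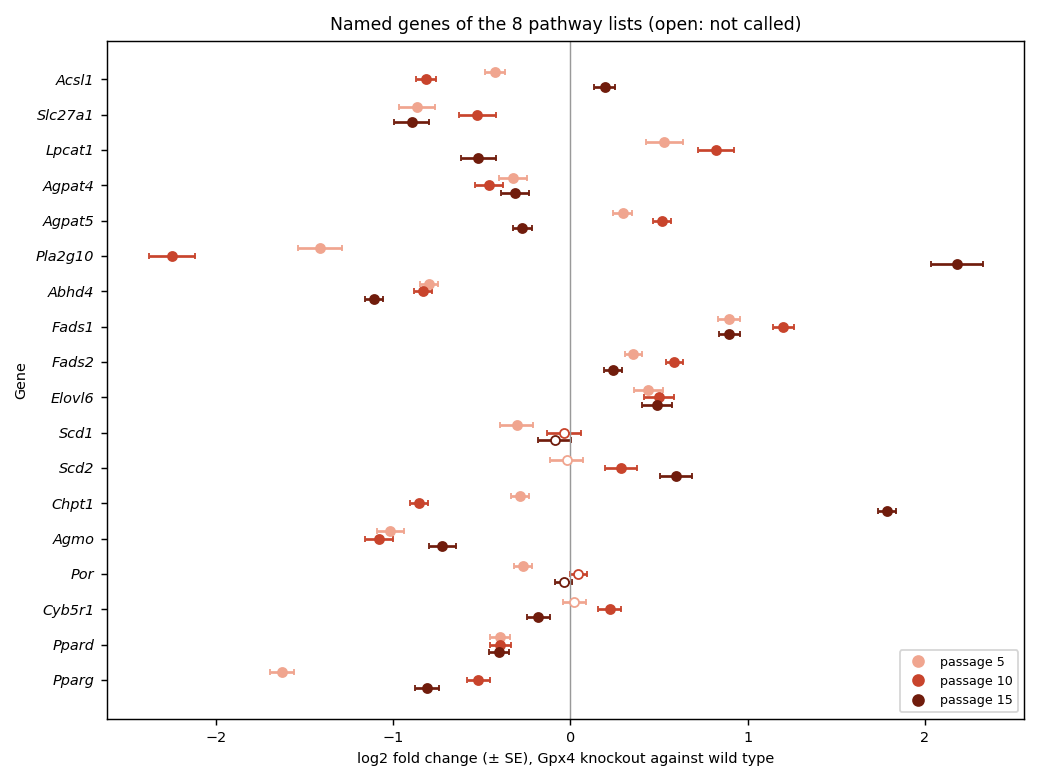
Log2 fold changes (points) with SE (bars) in Gpx4 knockout against wild type at passages 5, 10 and 15 for the 18 named genes of the 8 lists, open where the adjusted p was 0.05 or more. Fads1, Fads2 and Elovl6 lie right of 0 and Slc27a1, Agpat4, Abhd4, Agmo, Ppard and Pparg left of 0 at all 3 passages, while Pla2g10 and Chpt1 switch sides at passage 15.

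Within the 8 genes, levels over the 21 libraries ran most closely together for Mboat2 and Acsl3 (Pearson r = 0.84 of log2 CPM, 0.89 over the 18 libraries without wild-type passage 15), Acsl4 and Agps (r = 0.81) and Mboat1 and Far1 (r = 0.73, and 0.81 over 18). The Acsl4 and Agps value was -0.23 over the 18. Over those 18, Acsl3 and Acsl4 were at 0.79 (0.61 over 21) and Acsl4 and Far1 at -0.70 (0.29 over 21). The points share groups of 3 libraries, so these values mostly describe 7 group means. Of 8886 protein-coding genes with a mean of at least 10 CPM (predicted Gm and Rik models left out), those most like Mboat2 were Scara3 (r = 0.92) and Esco2 (r = 0.92), and Esco2 was also the one most like Acsl3 (r = 0.88), followed by Cep76 (r = 0.88). Sprr1a (r = 0.97) and Lgalsl (r = 0.97) were most like Mboat1, and Slc44a1 (r = 0.98) and Ankrd44 (r = 0.98) most like Far1. Unc50 (r = 0.87) and Aspa (r = 0.79) were most like Lpcat3. For Acsl4 they were Atp2a2 and Larp4 (both r = 0.96, and 0.76 and 0.74 over 18), for Agps Specc1 and Slc4a4 (both r = 0.97), and for Gnpat Lrrcc1 (r = 0.64) and Yap1 (r = 0.62).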

How the data were processed

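RNA-seq of 21 organoid libraries in 7 groups was used, and 6 of the 27 samples of the series were not analysed here. The authors deposited raw read counts per gene, their FPKM values and exonic gene lengths in bases. The submitters' processing notes name cutadapt 1.9.1, HISAT2 2.2.1, HTSeq 0.6.1 and build GRCm38.p5, with no settings. The FPKM equal the count per kilobase, scaled to the library total, to within 0.005. Counts were tested with edgeR 4.0.16 (R 4.3.3), quasi-likelihood with robust dispersion, TMM scaling and filterByExpr (minimum count 10, total 15), in 1 group-means model of all 21 libraries, adjusted by Benjamini and Hochberg over 15115 genes holding 99.9% of counts. The 95% intervals use the normal distribution of the log2 fold change. The code was tested on simulated data. Alternatives used DESeq2 1.42.0, limma 3.58.1 on log2(FPKM + 1), other scalings and filters, fewer libraries, a replicate block and a length offset. Pathway genes were named when among the 2 of their list with the smallest adjusted p over the 3 comparisons of genotypes, or called the same way at all 3 passages. The 8 genes and all lists were chosen with earlier results of these data known. Promoter sequences and positions come from RefSeq (GRCm38.p6) and GENCODE annotation of GRCm38.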

Additional observations from a re-analysis of the deposited data

Results flagged for a closer look

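Genotypes differed in their change with passage, by the interaction term of the edgeR fit, for 2 of the 8 genes at passage 10 (5.93% of all genes called) and 5 at passage 15 (38.3%). At passage 10 against 5 the knockout change exceeded the wild-type change by log2 0.31 for Mboat1 and 0.78 for Mboat2. At passage 15 against 5 it exceeded it by 0.38 for Lpcat3, 0.23 for Mboat1, 1.39 for Mboat2, 0.47 for Agps and 1.01 for Far1. From passage 5 to 10 Mboat1 and Mboat2 rose in the knockout and were not called in wild type. From passage 5 to 15 the knockout rose for Lpcat3, the gene of polyunsaturated acyl transfer, and wild type was not called. Over that interval both genotypes fell for Mboat1, wild type further. For Mboat2, the ferroptosis suppressor, the knockout rose and wild type fell over it. For Agps and Far1 wild type fell and the knockout was not called, and the wild-type passage 15 libraries were the ones that scattered with gene length.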

How the results depend on the processing

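Most values of 7 of the 8 genes, Gnpat apart, kept their direction and their side of the threshold: 538 of 630 under other settings (24 lost a call, 54 gained one, 14 changed sign) and 476 of 504 with 1 library left out (17, 2 and 9). For the pathway genes and Gpx4 the numbers were 485 of 513 (15, 6 and 7) and 321 of 342 (17, 1 and 3). Gnpat, called in 0 of 172 fits, had a smallest adjusted p of 0.0792 by edgeR, limma or DESeq2. The length offset and wild-type passage 15 as replicate 2 alone were chosen after seeing the data.

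When the fit held the compared groups alone, the number of the 8 called was 6 (knockout, passage 10), 1 (knockout, passage 15), 5 (wild type, passage 10 against 5), 4 and 6 (knockout, passages 10 and 15 against 5), and 5 and 3 (interaction at passages 10 and 15). With wild-type passage 15 dropped it was 7 (knockout, passage 10), 5, 4 and 6 (the same passage comparisons) and 5 (interaction, passage 10). With the length offset it was 5 (knockout, passage 10), 4 and 5 (knockout, passages 10 and 15 against 5), with 5978, 1579 and 2467 of 15115 genes called. Without the low-count filter it was 0 (wild type, passage 10 against 5), 1 (knockout, passage 10 against 5) and 1 (interaction, passage 10), with 760, 1121 and 922 of 30813 called. DESeq2 gave 2 (wild type, passage 10 against 5, 862 of 14823), and library totals alone gave 3 (interaction, passage 15, 5924 of 15115). Over all genes, the fit of the compared groups alone against the fit of all libraries called 7035 against 4547 (knockout, passage 5), 7551 against 5204 (passage 10), 2735 against 7396 (passage 15), 2827 against 738 and 3631 against 7761 (wild type, passages 10 and 15 against 5), 3059 against 1150 and 4606 against 1960 (knockout, likewise), and 2951 against 897 and 4312 against 5794 (interaction, passages 10 and 15). The fits of the compared groups alone tested 13765 to 14597 genes, and the fit of all libraries 15115. With wild-type passage 15 dropped the numbers called, of 14984 tested, were 7095 and 7794 (knockout, passages 5 and 10) and 2766 (wild type, passage 10 against 5). They were 3330 and 4492 for the knockout at passages 10 and 15 against 5, and 3018 for the interaction at passage 10.

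With 1 library left out, the number called ranged from 3 to 4 (knockout, passage 5), 6 to 7 (passage 15), 0 to 1 and 4 to 6 (wild type, passages 10 and 15 against 5), 2 to 3 (knockout, passage 15 against 5) and 4 to 6 (interaction, passage 15). Over all genes, these fits called 3776 to 3828 (knockout, passage 5) against 4547 with all libraries, and 6323 to 9140 against 7396 (passage 15). In wild type they called 500 to 529 against 738 (passage 10 against 5) and 6821 to 9270 against 7761 (passage 15 against 5). They called 1500 to 1523 against 1960 (knockout, passage 15 against 5) and 5099 to 7956 against 5794 (interaction, passage 15). They tested 15432 to 15476 genes, and the fit of all libraries 15115.

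Some values changed sign, and the cause was not tested. Called in the fit of all libraries among these were Far1 (0.30) and Acsl1 (0.19) in the knockout at passage 15, and the Acsl4 interaction (0.24) was not called. Agps in Mist1+ against Mist1- was at -0.0034 (median-ratio scaling), -0.050 (library totals), -0.036 (no filter), -0.0037 (DESeq2) and -0.049 (limma), and in the knockout at passage 5 at 0.051 (totals), 0.010 (no filter) and 0.050 (limma). Acsl3 in wild type, passage 15 against 5, was at 0.021 (totals), 0.0075 (limma) and 0.022 (replicate 2 alone). With replicate 2 alone, Far1 in the knockout at passage 15 was at -0.0035 and the Acsl4 interaction there at -0.0071. Acsl4 in the knockout, passage 10 against 5, was at -0.00048 without the filter. Scd2 at passage 5 was at 0.067 (totals), 0.026 (no filter) and 0.066 (limma), Scd1 at passage 10 at 0.038 (totals) and 0.037 (limma), Por at passage 15 at 0.042 (replicate 2 alone) and Acsl1 at passage 15 at -0.049 (length offset). With 1 library left out, ranges that crossed 0 were -0.035 to 0.0058 (Acsl4) and -0.0063 to 0.020 (Agps) in Mist1+ against Mist1-, -0.12 to 0.011 for Mboat2 in wild type (passage 10 against 5), -0.14 to 0.043 for Acsl3 in wild type (passage 15 against 5), -0.035 to 0.020 for Acsl3 in the knockout (passage 10 against 5), -0.0058 to 0.062 for Cyb5r1 (knockout, passage 5) and -0.25 to 0.039 for Scd1 (knockout, passage 15).

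The replicate block changed no call in 70 of 70 values of the same 7 genes, with Mboat2 at 0.56, 1.34 and 1.94 in the knockout at passages 5, 10 and 15. Replicate numbers did not pair the libraries: same-numbered libraries correlated at -0.025 to 0.041 in their deviations over 12 pairs, of which 7 matched best with their own number. At 44 to 445 counts Mboat2 is the least precisely counted of the 8.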
